A study of Mus musculus with 3 samples.

Results

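The genes described here were 9 components, receptors and regulators of the complement system, chosen by name from the 27886 genes that 3 single cell RNA-seq tables list. The names were C1qa, C1qb and C1qc, which encode the 3 chains of C1q, the protease C1s1, the components C4b and C3, the receptors C3ar1 and C5ar1, and the inhibitor Serping1. All 9 were listed for cardiac bodies (CBs), 8 for cardiac precursor cell cultures (CPCCs), which lacked a row for C4b, and 3 for mouse embryonic stem cells (mESCs), where the rows were C1s1, C4b and Serping1. Each table lists only genes with at least 1 count in some cell, and a gene without a row was given no value here.

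All cells came from male F1 embryonic stem cells of a C57BL/6 x CAST/EiJ cross, and every group shares that genotype. The mESCs were grown undifferentiated (215 cells in 3 pools). The CPCCs, labelled cardiac precursor cells, were derived in vitro from mESCs by way of embryoid bodies that were dissociated, plated in medium with EGF and Fgf2, and passaged (175 cells in 2 pools). The CBs, labelled mature cardiac cells, were aggregates kept in ascorbic acid medium from which beating bodies were picked (232 cells in 3 pools). Each group was 1 sample, so no difference between groups has a replicate check and no test was run. The pools are sets of cells named in the tables, not replicates, and which clone or culture a pool holds cannot be told apart from the pool itself.

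Complement is a cascade of blood and tissue proteins that tags cells and particles for removal. In the classical pathway C1q binds a target, the proteases C1r and C1s attached to it cleave C4 and C2, and the product cleaves C3. The small fragments C3a and C5a act on receptors of myeloid cells. In tissues, macrophages are known as the main makers of C1q, whereas fibroblasts and hepatocytes make many of the proteases and regulators.

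The C1q genes lie side by side on the minus strand of mouse chromosome 4 (GRCm38), C1qb at 136880129-136886187, C1qc at 136889804-136893065 and C1qa at 136895917-136898803. They span 18675 bases, with 3616 bases between C1qb and C1qc and 2851 between C1qc and C1qa. C3ar1 and C1s1 are both on the minus strand of chromosome 6, at 122847138-122856161 and 124530345-124542359. The other members are on chromosome 7 (C5ar1, 16246743-16259540), chromosome 17 (C3, 57203970-57228136, and C4b, 34728380-34743882) and chromosome 2 (Serping1, 84765387-84775444), all on the minus strand. The bases just upstream of 4 of these genes are shown because their transcripts fell into different cells, those of C1qb, C1qc and C3ar1 mainly into cells with macrophage markers and those of C1s1 mainly into cells with stromal markers. Sequences are from RefSeq (GRCm38.p6), read 5′ to 3′ on the gene's own minus strand and ending before the first transcribed base, at chr4:136886201-136886450 for C1qb, chr4:136893066-136893164 for C1qc, chr6:122856162-122856407 for C3ar1 and chr6:124542360-124542609 for C1s1. The 151 bases before the RefSeq start of C1qc and the 4 before that of C3ar1 lie within the gene positions given above and were left out. Capitals mark GAGGAA on either strand, the core of the site bound by the myeloid factor PU.1.
C1qb: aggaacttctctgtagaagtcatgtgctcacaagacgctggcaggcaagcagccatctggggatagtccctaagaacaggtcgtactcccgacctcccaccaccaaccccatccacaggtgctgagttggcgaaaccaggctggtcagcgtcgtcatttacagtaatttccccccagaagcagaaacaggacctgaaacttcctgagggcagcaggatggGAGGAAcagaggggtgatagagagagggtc
C1qc: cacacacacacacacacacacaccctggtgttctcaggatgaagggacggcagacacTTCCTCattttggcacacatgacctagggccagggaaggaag
C3ar1: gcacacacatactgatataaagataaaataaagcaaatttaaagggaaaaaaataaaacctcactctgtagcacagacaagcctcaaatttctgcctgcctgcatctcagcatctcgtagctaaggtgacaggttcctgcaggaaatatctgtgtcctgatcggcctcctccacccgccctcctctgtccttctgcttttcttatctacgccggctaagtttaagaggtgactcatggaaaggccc
C1s1: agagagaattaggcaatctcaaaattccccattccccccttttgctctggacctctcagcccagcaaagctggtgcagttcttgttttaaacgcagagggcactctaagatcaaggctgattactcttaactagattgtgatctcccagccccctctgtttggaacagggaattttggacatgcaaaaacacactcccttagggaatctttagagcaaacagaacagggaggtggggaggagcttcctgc
In the 250 bases before the RefSeq start, longer than some of the stretches shown, GAGGAA was found for C1qb and C1qc, on the opposite strand in the latter, and not for C3ar1, C5ar1, C1s1 and C3. Among the 250 bases before the start of 27025 RefSeq genes, 23.1% held it on either strand, so the letters alone do not set these genes apart. No upstream sequence was printed for C1qa, C4b and Serping1.

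Median depth was 1528316 counts per cell in mESCs, 1437414 in CPCCs and 1397869 in CBs, with pool medians from 804581 to 1855334. Cells with 5 or more of 12 macrophage markers at 10 or more counts were called macrophage-marker cells, and of the rest those with 5 or more of 10 stromal markers were called stromal-marker cells. No complement gene was among these markers. The macrophage rule was met by 0 of 215 mESCs (exact 95% binomial interval 0 to 1.70%), by 17 of 175 CPCC cells (9.71%, 5.76 to 15.1%) and by 4 of 232 CB cells (1.72%, 0.472 to 4.36%). Intervals of shares cover only the sampling of cells, and intervals of levels only the counting of reads. Reads carried no molecular identifiers, so intervals of levels are too narrow for the number of molecules. All 17 CPCC cells were in pool 2, and of the CB cells 3 were in pool 1 and 1 in pool 3. In CPCCs the class was sharply bounded, because every cell had either 11 or more macrophage markers or 4 or fewer. The stromal rule was met by 33 CPCC cells (5 in pool 1 and 28 in pool 2) and 111 CB cells (46, 12 and 53 in pools 1, 2 and 3). Each other class needed 5 or more of 10 markers of its own list and took only cells that met no other rule. In this way 199 mESCs and 75 CPCC cells were called pluripotency-marker cells. Only 4 CB cells met the cardiomyocyte rule and no other, although that sample is labelled mature cardiac cells. Of the macrophage-marker cells, 4 of 17 in CPCCs and 4 of 4 in CBs met a further class rule as well, among them the stromal rule in 3 of the CB cells, so those CB cells are not clean examples of a type.

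The C1q chains carried the highest complement levels of the CPCC sample, at 265 (C1qa), 571 (C1qb) and 269.5 (C1qc) CPM per kb of exons, where CPM is the number of counts per 1000000 of all counts of the same cells. Summed over all cells, C1qa reached 276 CPM, C1qb 622 CPM and C1qc 520.5 CPM. All of it was in pool 2, where the values were 535, 1204 and 1008 CPM, against 0 for each chain in pool 1. In CBs the same genes were far lower, at 15.7, 28.8 and 29.2 CPM over all cells. By CB pool, C1qa stood at 12.2, 0.0985 and 31.4 CPM, C1qb at 66.5, 0 and 38.9 CPM, and C1qc at 39.5, 0.780 and 50.8 CPM. Thus the pools in which all chains passed 1 CPM were the pools that held macrophage-marker cells.

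**Figure D1:**
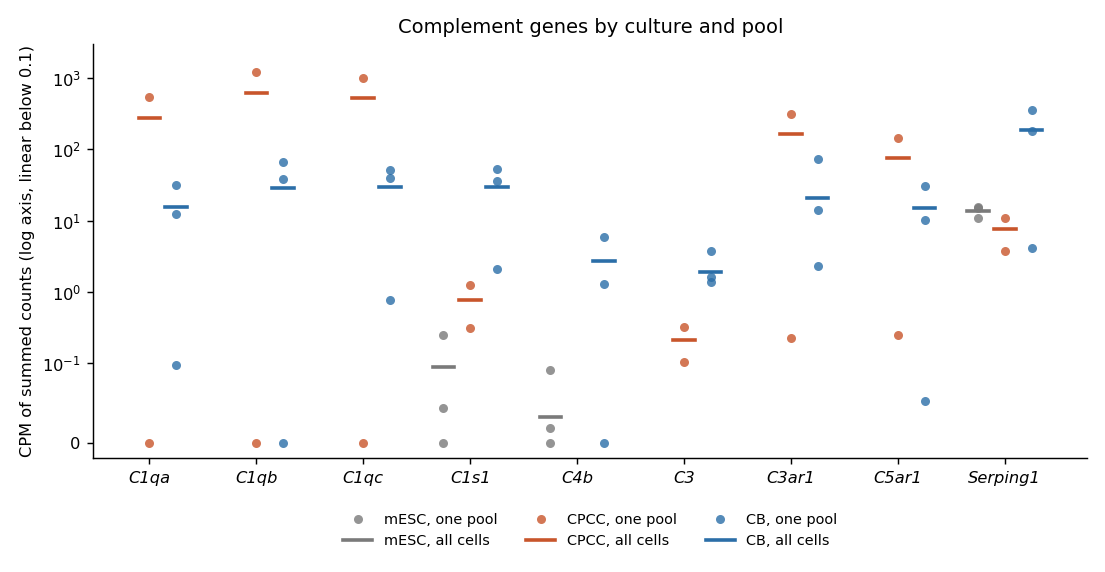
Level of each complement gene in CPM of summed counts (vertical axis, logarithmic above 0.1 and linear below), with a point for each pool and a bar for all cells of a sample; genes without a row in a table have no point. C1qa, C1qb and C1qc lie at 0 in CPCC pool 1 and at 535 to 1204 CPM in pool 2, and Serping1 lies at 179, 4.08 and 359.8 CPM in the 3 CB pools.

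Within CPCCs, the 17 macrophage-marker cells held 99.97% of the C1qa counts, 98.8% of the C1qb counts and 99.0% of the C1qc counts. C1qa ranged from 82.2 to 3588 CPM in these cells (median 2091), C1qb from 406 to 7222 CPM (median 4476) and C1qc from 392 to 7159 CPM (median 3799). The lowest value of each chain was in the same cell, which also had 8 pluripotency and 6 epithelial markers. In summed counts C1qa was at 2162 CPM in the class and 0.0872 CPM in the other 158 cells, a log2 ratio of 10.96 on the scale of CPM + 1. The log2 ratios of C1qb (4809 against 8.81 CPM) and C1qc (4036 against 6.09 CPM) were 8.94 and 9.15. The 3 chains together made up 1.10% of all counts in the 17 cells, and each of these cells had 10 or more counts of each chain. None of the other 158 cells did, although 9 of them had 10 or more counts of some chain. Without the 4 cells that met a further rule, the class had 2490 CPM for C1qa, 5426 CPM for C1qb and 4545 CPM for C1qc.

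The share of each chain varied from cell to cell. In the 17 CPCC cells C1qa made up 9.34 to 26.5% of a cell's C1q counts, C1qb 31.2 to 50.6% and C1qc 30.7 to 45.7%. The lowest C1qa share and the highest shares of C1qb and C1qc were in cells that also met a further class rule. The other ends of these ranges were in cells that met none. Over all 17 cells the split was 19.6%, 43.7% and 36.7%, and after division by exonic length it was 24.2%, 51.5% and 24.3%. In CPM per kb of exons, C1qb had the highest level (4420, exact 95% Poisson interval 4399 to 4441), followed by C1qc (2090, 2079 to 2101) and C1qa (2079, 2064 to 2094). The intervals of C1qc and C1qa overlap, and so do the ranges of all 3 chains over single cells. The 4 CB cells split their C1q counts as 21.4% C1qa, 39.2% C1qb and 39.3% C1qc, which came to 26.8%, 46.8% and 26.4% per length. This split was set by the pool 3 cell, as over the 4 cells C1qa made up 7.68 to 26.0% (median 11.4%), C1qb 32.1 to 60.2% (53.1%) and C1qc 32.1 to 41.9% (35.5%).

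The CB cells differed more among themselves. In pool 1, the cell with 12 macrophage and 7 stromal markers had 513 CPM of C1qa, 4023 CPM of C1qb and 2147 CPM of C1qc. The pool 1 cell with 10 macrophage markers had 257, 1036 and 639 CPM, and that with 7 macrophage and 8 epithelial markers had 57.1, 315 and 227 CPM. The pool 3 cell had 12 macrophage and 9 stromal markers and 1681, 2078 and 2715 CPM. Summed over the class, C1qa was at 886 CPM against 0.0421 CPM in the other 228 cells (log2 ratio 9.73), C1qb at 1619 against 0.247 CPM (10.34) and C1qc at 1625 against 0.548 CPM (10.04). The CB level of each chain rested on few cells, as a single cell gave 85.4% of all C1qa counts, 57.4% of all C1qb counts and 74.0% of all C1qc counts of that sample.

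**Figure D2:**
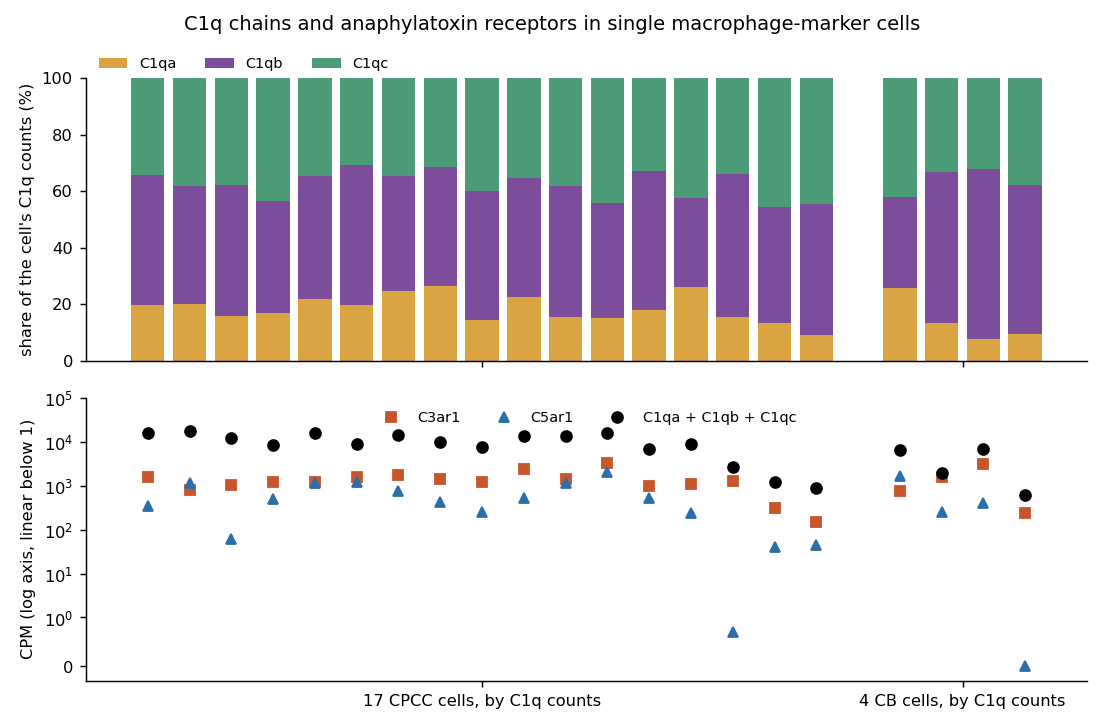
Each column is a macrophage-marker cell, 17 from CPCCs and 4 from CBs in order of C1q counts: the upper panel gives the percentage of the cell's C1q counts from each chain, and the lower panel the CPM of C3ar1, C5ar1 and the summed chains (log axis, linear below 1). C1qb takes 31.2 to 50.6% in the CPCC cells, and C5ar1 falls to 0.696 CPM in 1 CPCC cell and to 0 in 1 CB cell.

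C3ar1, the receptor for C3a, and C5ar1, the receptor for C5a, were found in the same class. Over all CPCC cells C3ar1 was at 163 CPM, with 0.225 CPM in pool 1 and 316 CPM in pool 2. C5ar1 was at 75.0 CPM, with 0.247 and 145 CPM. The macrophage-marker cells held 99.7% of the C3ar1 counts and 98.3% of the C5ar1 counts of that sample. Among the 17 cells C3ar1 ranged from 147 to 3210 CPM (median 1217), a spread similar to that of the C1q chains, whereas C5ar1 ranged from 0.696 to 2004 CPM (median 486). Summed levels were 1275 CPM of C3ar1 against 0.635 CPM in the other cells (log2 ratio 9.61) and 577 against 1.44 CPM of C5ar1 (7.89). The cell with the lowest C3ar1 level also had 8 pluripotency and 6 epithelial markers. All 3 chains and both receptors reached 10 counts in 16 of the 17 cells. The remaining cell, which also had 6 pluripotency markers, lacked C5ar1 at that level. All 13 cells that met no further class rule had 10 or more counts of C5ar1. In CPM per kb, C3ar1 (296, interval 293 to 299) lay above C5ar1 (225, 222 to 228) in CPCC cells, and C5ar1 (327, 318 to 337) above C3ar1 (258, 252 to 265) in the 4 CB cells, with overlapping ranges over single cells in both samples.

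In CBs C3ar1 was at 20.5 CPM (73.7, 2.30 and 14.2 CPM by pool) and C5ar1 at 14.9 CPM (10.4, 0.0530 and 30.4 CPM). The pool 1 cell with 12 macrophage markers had 3163 CPM of C3ar1 and 396 CPM of C5ar1, and the cell with 10 had 1590 and 255 CPM. The pool 1 cell with epithelial markers had 239.5 CPM of C3ar1 and no C5ar1, and the pool 3 cell had 759 and 1625 CPM. C5ar1 thus exceeded C3ar1 in CPM only in the pool 3 cell, which gave 87.0% of all C5ar1 counts of the sample.

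Against the other cells of their sample, 5 of 8 members were at least 2-fold higher in CPCC macrophage-marker cells, where 10.4% of all genes were higher, and 1 was lower, where 27.4% of all genes were. The median log2 ratio of the members was 8.41, and that of all genes −0.34. In CBs 6 of 9 members were higher (9.29% of all genes) and 2 lower (38.7% of all genes). The 5 genes higher in both were the C1q chains and the receptors. Macrophage markers defined the class, and summed over the list they stood at 15551 CPM in the 17 CPCC cells, 6684 CPM in the 4 CB cells and 17.7 and 35.7 CPM in the stromal-marker cells of CPCCs and CBs.

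The remaining members were low or absent in the CPCC class. Serping1, which encodes the C1 inhibitor that blocks C1r and C1s, was at 0.170 CPM in the 17 CPCC cells and 8.60 CPM in the other cells (log2 ratio −3.04). C1s1 and C3 had no count in the 17 cells and stood at 0.885 and 0.241 CPM elsewhere, but only 5 and 2 of the other 158 cells held them, too few to set the class apart. In the CB class C1s1 was at 0.335 CPM against 30.3 CPM in the other cells (−4.55), and C3 had no count against 1.95 CPM, which came from 5 of the other 228 cells and is too few to compare with 4. Serping1 and C4b differed from that pattern in CBs, with 273 against 186 CPM (0.55) and 26.5 against 2.33 CPM (3.04). By cell, the pool 3 cell, with 9 stromal markers, had 595 CPM of Serping1 and 58.7 CPM of C4b, the pool 1 cell with 12 macrophage and 7 stromal markers had 59.9 CPM of Serping1, and the other 2 cells, with 6 and 0 stromal markers, had neither.

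**Figure D3:**
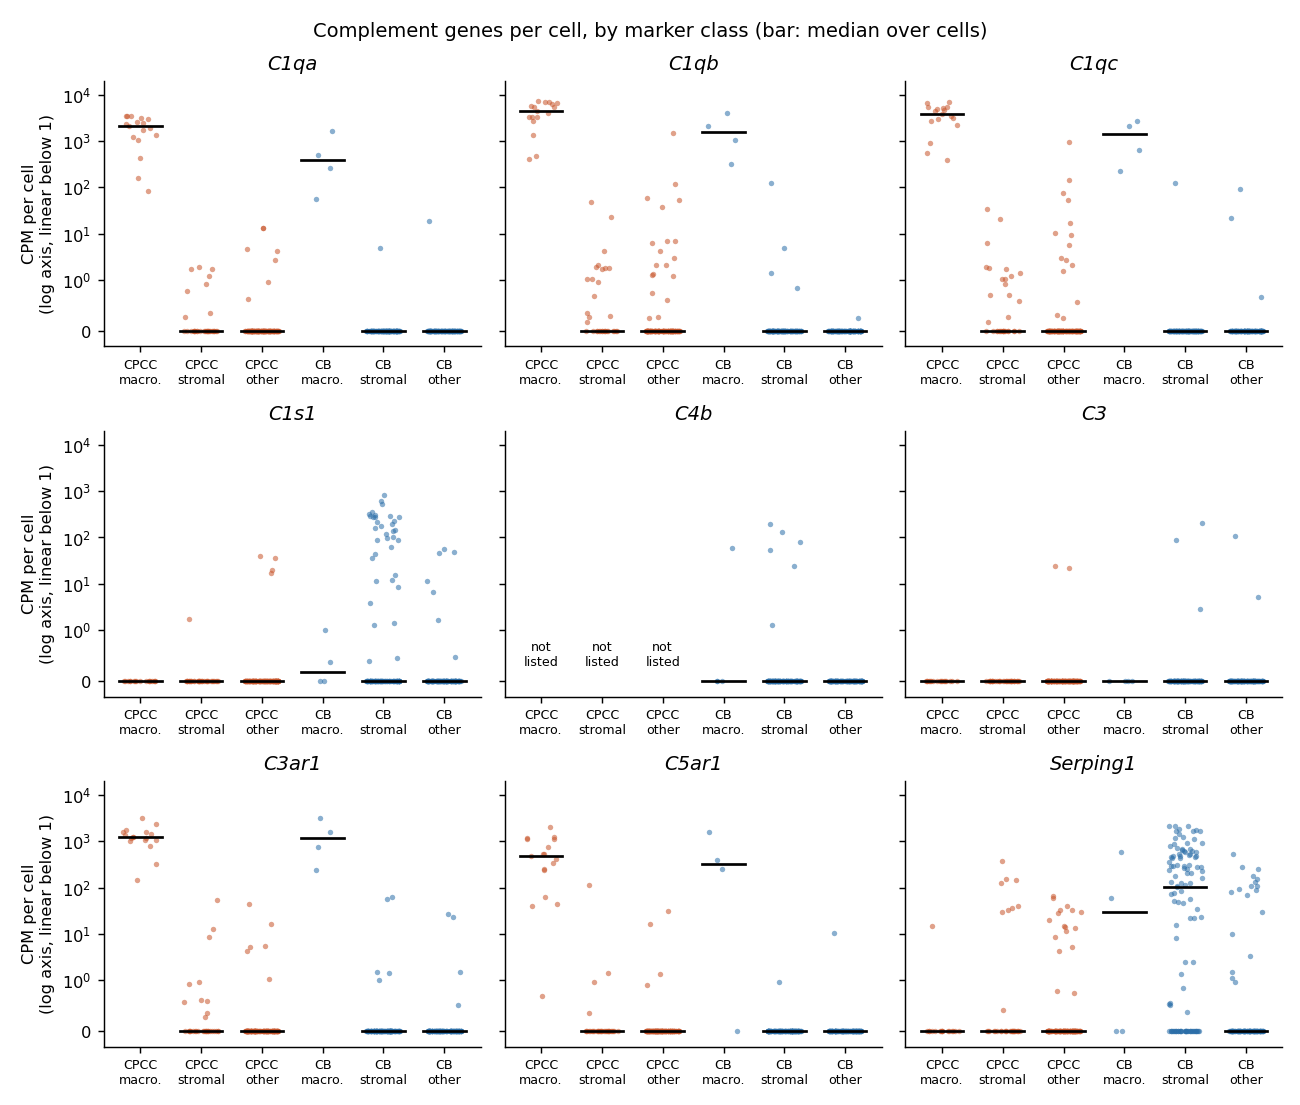
CPM of each complement gene in single cells with at least 10000 counts (log axis, linear below 1), by sample and marker class, with a bar at the median. The C1q chains and C3ar1 are above 0 in every macrophage-marker cell shown and have a median of 0 in the other classes, while Serping1 and C1s1 are highest in CB stromal-marker cells; C4b has no row in the CPCC table.

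In CPCCs low C1q counts also appeared outside the class, in the pool that held it. In CPCC pool 1, with no macrophage-marker cell, each C1q chain was found in 0 of 79 cells (exact 95% binomial interval 0 to 4.56%). In pool 2, 15 of 79 other cells had a C1qa count (19.0%, exact 95% binomial interval 11.0 to 29.4%), 35 a C1qb count (44.3%, 33.1 to 55.9%) and 31 a C1qc count (39.2%). C3ar1 was found in 1 cell outside the class in pool 1 and in 15 in pool 2, and C5ar1 in 1 and 7. Most of these cells had few counts, with a median of 1 to 2 for each chain, and 10 or more counts were reached by 0 cells for C1qa, 7 for C1qb and 7 for C1qc. In pool 2, C1qb was found in 16 of 28 stromal-marker cells and in 7 of 22 pluripotency-marker cells. Serping1 did not follow the pools in this way, with 15 cells in pool 1 (19.0%) and 11 outside the class in pool 2 (13.9%).

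Among CPCC cells outside the class with fewer than 10 counts of each chain, 37 of 149 had some C1q, 101 counts in all, of which 15.8% were C1qa, 46.5% C1qb and 37.6% C1qc. The split in the macrophage-marker cells was 19.6%, 43.7% and 36.7%. The 9 cells with 10 or more counts of a chain departed from this proportion in various ways, and 3 of them held most of the counts. The first, with 2009 genes detected, had 1516 counts of C1qb and 970 of C1qc, the next, with 730 genes, had 363 of C1qb, and the last, with 8424 genes, had 297 of C1qc and 1 of C1qb. With all 9 cells included C1qa was 0.582% of the C1q counts outside the class. Shares of cells with a count, such as 29.7% of all CPCC cells for C1qb or 18.3% for C1qa, were therefore read as a mixture of the class and this low level, whose source was not tested. In CBs C1qb was found outside the class in 4 of 66 cells of pool 1, 0 of 78 of pool 2 and 2 of 84 of pool 3, C1qc in 2, 2 and 0 cells and C1qa in 1, 1 and 0. Pool 2, which had no macrophage-marker cell, thus had a few cells with these genes, 2 with C1qc at 40 and 63 counts and 6 with C3ar1 at up to 125 counts. C1qb, however, had no count in that pool. Among CB cells outside the class with fewer than 10 counts of each chain, 6 of 225 had some C1q, 7 counts in all. These are too few to tell whether CBs share the pattern of the CPCC pools.

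**Figure D4:**
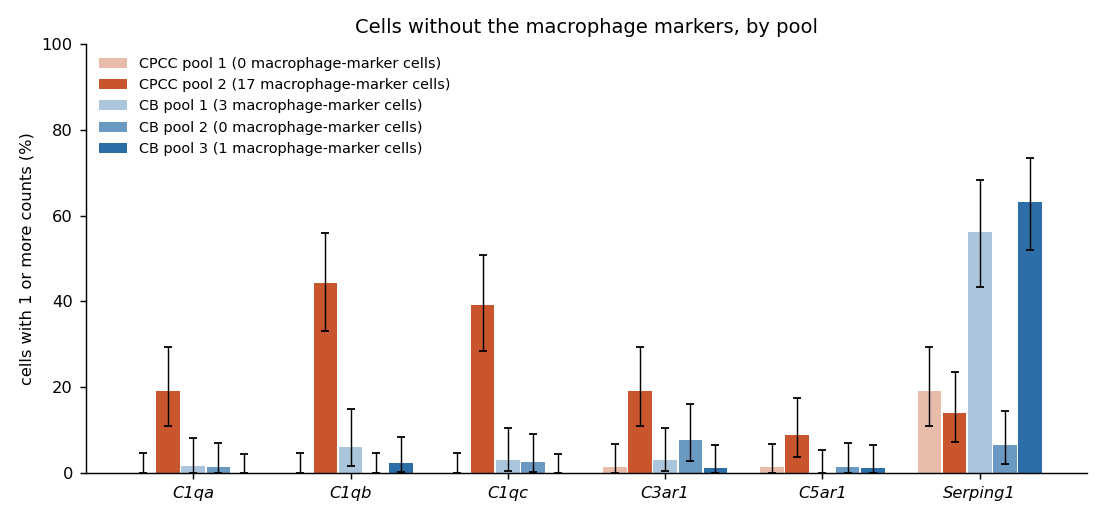
Percentage of cells outside the macrophage-marker class with at least 1 count of each gene, by pool, with exact 95% binomial intervals. In CPCC pool 2, C1qb is found in 44.3% of such cells and C1qa in 19.0%, against 0 of 79 cells in pool 1, while Serping1 is found in 13.9% and 19.0%.

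Serping1 had the highest level of the members in CBs (80.7 CPM per kb of exons, followed by C1qb at 26.5), and of the 3 listed for mESCs it was the only gene above 1 CPM there. It stood at 13.8 CPM in mESCs (10.9, 15.3 and 15.0 CPM by pool), 7.53 CPM in CPCCs (3.81 and 11.0 CPM) and 187.5 CPM in CBs (179, 4.08 and 359.8 CPM). Pool 2 of the CBs was thus below every mESC pool, and the other CB pools were above all pools of the other samples. A count was found in 82 of 215 mESCs (38.1%), 27 of 175 CPCC cells (15.4%) and 97 of 232 CB cells (41.8%, 35.4 to 48.4%). Thinned to 400000 counts per cell these shares were 36.2%, 15.0% and 42.4%, a similar share in mESCs and CBs at different levels. That share hid unlike pools, since the cells with a count were 37.8%, 45.5% and 27.1% in the mESC pools and 55.1%, 6.41% and 63.5% in the CB pools.

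C1s1, which encodes the C1s protease, was near the limit of detection in mESCs (0.0952 CPM; 0.248, 0.0437 and 0 CPM by pool) and low in CPCCs (0.772 CPM; 1.26 and 0.316 CPM). It reached 29.8 CPM in CBs, with 36.2, 2.07 and 52.5 CPM by pool and a count in 44 of 232 cells (19.0%). Thinned to equal depth, 1.53% of mESCs, 2.50% of CPCC cells and 18.1% of CB cells had a count. In CPCCs 98.6% of the C1s1 counts were in pluripotency-marker cells, of which 3 had 10 or more counts. C1s1 and its neighbour C1s2 are near copies whose reads may be split in counting, as are C4b and C4a, so these values are uncertain, although C1s2 stood at only 0.902 CPM and C4a at 0.0779 CPM in CBs.

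C4b, a form of component C4, and C3, the component on which all pathways meet, were rare in the cultures that list them. C4b was at 0.0327 CPM in mESCs (0.0181, 0 and 0.0919 CPM by pool) and 2.76 CPM in CBs (1.29, 0 and 5.93 CPM), where 7 cells had a count. C3 was at 0.210 CPM in CPCCs (0.322 and 0.105 CPM) and 1.91 CPM in CBs (3.80, 1.61 and 1.38 CPM), where 5 cells had a count. A single cell gave 39.6% of the C4b counts and 36.5% of the C3 counts of CBs.

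With the macrophage-marker cells set aside, 3 of 9 members were at least 2-fold higher in the 111 stromal-marker cells of CBs than in the other 117 cells, where 10.7% of all genes were higher. They were C1s1, at 58.3 against 1.67 CPM (log2 ratio 4.47), Serping1, at 341 against 27.3 CPM (3.60), and C4b, at 4.61 CPM against no count, at least 252-fold higher. C4b rested on few cells, since 2 cells held 74.9% of its counts outside the macrophage class, and without them it was at 1.18 CPM in the stromal-marker cells. None of the 9 was lower, where 12.7% of all genes were. C3 was at 2.59 against 1.29 CPM (0.65), or 1.19 against 0.0801 CPM (1.02) without its 2 highest cells, which passes 2-fold. That level of 1.19 CPM rested on 1 cell with 198 counts. The C1q chains and C5ar1 were below 1 CPM on both sides. C3ar1 was at 1.46 and 0.384 CPM. The median log2 ratio was 0.65 for the members and −0.09 for all genes. If the 3 macrophage-marker cells that also met the stromal rule were counted as stromal, 8 of 9 members were higher (11.1% of all genes) and 0 lower (12.5%), so that the C1q chains and receptors among those 8 came from these 3 cells. Macrophage markers summed to 35.7 CPM in the 111 cells, with Adgre1, Ptprc and Spi1 at 0.

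Levels also differed between CB pools within this class. Serping1 stood at 235.5, 5.78 and 486 CPM in the stromal-marker cells of pools 1, 2 and 3, with 10 or more counts in 30 of 46, 2 of 12 and 37 of 53 cells. C1s1 was at 49.2, 0 and 79.0 CPM, with 10, 0 and 19 such cells. Pool 2 was the low pool for both, as it was over all its cells, and it also held all 20 endothelial-marker cells of the sample. Over the whole class Serping1 reached 10 counts in 69 of 111 cells (62.2%, 52.5 to 71.2%) and C1s1 in 29 (26.1%, 18.2 to 35.3%). Both reached it in 26 cells and neither in 39, so almost every cell with C1s1 also had its inhibitor. All 5 cells with 10 or more counts of C4b, and both stromal-marker cells with C3 at that level, had Serping1 too. In CPM per kb, Serping1 was highest in these cells (147, exact 95% Poisson interval 145 to 148), then C1s1 (18.6, 18.3 to 19.0), C4b (0.810, 0.754 to 0.870) and C3 (0.503, 0.457 to 0.553). The ranges over single cells all began at 0 and overlapped.

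**Figure D5:**
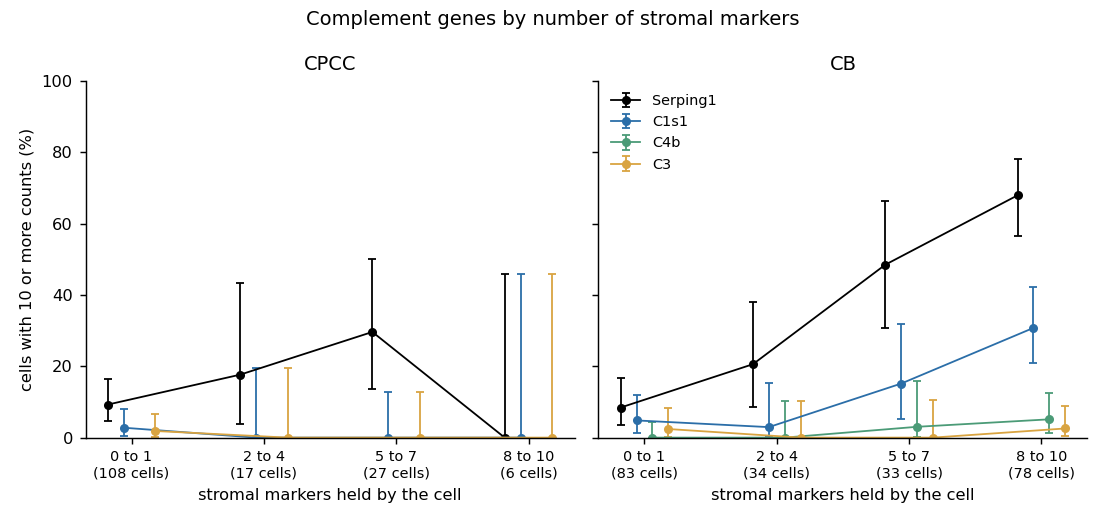
Percentage of cells outside the macrophage-marker class with 10 or more counts of Serping1, C1s1, C4b and C3 (vertical axis), by the number of stromal markers at 10 or more counts (horizontal axis), for CPCCs and CBs, with exact 95% binomial intervals. In CBs Serping1 goes from 8.43% of cells with 0 to 1 markers to 67.9% of cells with 8 to 10, and C1s1 from 4.82% to 30.8%.

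The share of CB cells with 10 or more counts of Serping1 was 8.43% with 0 to 1 stromal markers, 20.6% with 2 to 4, 48.5% with 5 to 7 and 67.9% with 8 to 10, and its level was 25.0, 31.7, 254 and 381 CPM. For C1s1 these shares were 4.82%, 2.94%, 15.2% and 30.8%, and the levels 2.01, 1.02, 55.7 and 59.5 CPM. Some Serping1 lay in other CB classes, at 57.4 CPM in epithelial-marker cells (11 of 44 with 10 or more counts), 41.4 CPM in the 4 cardiomyocyte-marker cells and 5.68 CPM in endothelial-marker cells. C3 was too rare to place: of the 4 CB cells with 10 or more counts, 1 stromal-marker cell of pool 1 had 236 counts and 1 of pool 3 had 198, while the others were pool 2 cells with 199 and 13 counts that carried 9 and 10 hepatic endoderm markers.

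CPCC stromal-marker cells showed Serping1 at a lower level. With the macrophage-marker cells set aside, it was at 22.2 CPM in the 33 cells and 3.77 CPM in the other 125 (log2 ratio 2.28), with 10 or more counts in 8 of 33 cells (24.2%, 11.1 to 42.3%). Its share by number of stromal markers was 9.26%, 17.6% and 29.6% for 0 to 1, 2 to 4 and 5 to 7, and 0 of 6 cells for 8 to 10. Of the 8 members 3 were at least 2-fold higher in this class (12.7% of all genes) and 3 lower (16.4%). The other higher members were C3ar1, at 1.72 against 0.248 CPM (1.13), and C5ar1, at 4.90 against 0.203 CPM (2.29), which rested on 1 cell with 307 counts. C1s1 was lower, at 0.0474 against 1.18 CPM (−1.06), the opposite side from CBs, as were C1qb, at 2.58 against 11.0 CPM (−1.75), and C1qc, at 1.74 against 7.64 CPM (−1.66). These calls rested on few cells, since the 2 cells with the most counts held 88.6% of the C1qb counts and 86.4% of the C1qc counts outside the macrophage class. Without the 2 highest cells of each gene the ratio was 1.30 for C1qb, 0.85 for C1qc, −0.29 for C1s1, 0.76 for C3ar1 and 0.05 for C5ar1, and Serping1 remained higher at 1.30 (10.7 against 3.77 CPM). Whether the classes of CPCCs and CBs differ in these ratios was not tested.

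From CPCCs to CBs, 5 of 8 members were at least 2-fold lower, where 7.54% of all genes were, and 3 higher, where 17.0% were. Log2 ratios of the lower members were −4.06 for C1qa, −4.38 for C1qb, −4.11 for C1qc, −2.93 for C3ar1 and −2.26 for C5ar1. The higher members were Serping1 (4.47), C1s1 (4.12) and C3 (1.27). The median over all genes was 0.14. Values of C1s1 and C3 did not overlap between the pools of the samples, where 17.9% of all genes were higher without overlap, and none of the members was lower without overlap, where 10.1% of all genes were. Without the macrophage-marker cells the ratio was −0.06 for C1qa, −2.98 for C1qb, −2.20 for C1qc, −1.25 for C5ar1 and 0.24 for C3ar1, and 4.28, 4.05 and 1.25 for Serping1, C1s1 and C3. The calls left for C1qb, C1qc and C5ar1 rested on a few CPCC cells, as the 2 highest held 88.6%, 86.4% and 98.3% of their counts outside the class. Without the 2 highest cells of each gene in each sample as well, none of the 8 was at least 2-fold lower, with −0.996 for C1qb, −0.71 for C1qc and −0.04 for C5ar1, and Serping1 (4.68) and C1s1 (4.31) remained higher, while C3 was at 0.72. Without CPCC pool 2 all 8 members were higher in CBs, so the direction of the C1q chains and both receptors depended on that pool. All these samplewide levels combine the share of cells of a class with the level per cell.

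Against mESCs, the 3 members listed in both tables were all higher in CBs, where 24.9% of all genes were higher and 11.3% lower: C1s1 by 4.81, Serping1 by 3.67 and C4b by 1.86 on the log2 scale, against a median of 0.13 over all genes. Without the macrophage-marker cells and the 2 highest other cells of each gene, the ratio of C4b was 0.66. The pools did not overlap for C1s1, as for 24.7% of all genes, and overlapped for Serping1 and C4b. From mESCs to CPCCs neither of the 2 members listed in both reached 2-fold, with 0.69 for C1s1 and −0.80 for Serping1, where 13.4% of all genes were higher and 6.38% lower. The pools of C1s1 did not overlap there either, as for 19.0% of all genes that were higher. The CB comparisons share the CB cells and the mESC comparisons share the mESCs, so they are not independent of each other.

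Genes whose levels over single cells were most like those of a member are given as a description, since cells share libraries and many are at 0 for both genes. Over 174 CPCC cells with at least 10000 counts, C1qa was most like Cd300c2 (Pearson r of log2(CPM + 1) 0.99), Adgre1 (0.98) and Lilr4b (0.98). C1qb was most like Fcer1g, Cx3cr1 and Ctss (0.95 each), and C1qc like Tyrobp (0.95), Cx3cr1 (0.95) and Rac2 (0.94). For C3ar1 the genes were Fcrls, Lilrb4a and Rac2 (0.96 each), and for C5ar1 Cd84 (0.93), Aif1 (0.93) and Lilr4b (0.92). Several of these, such as Fcer1g, which encodes the signalling chain of Fc receptors, are well known myeloid genes. Over 223 CB cells C1s1 was most like C1ra (0.69), the gene of its partner protease, and then C1s2 (0.65) and C1rb (0.61), the near copies of both. Serping1 was most like the collagen gene Col1a1 (0.62), Igfbp7 (0.61) and the elastin gene Eln (0.60). C4b (Gm24265, 0.44) and C3 (Saa3, 0.77) were found in only 7 and 5 of these cells, too few to read an order from.

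Of 47 further complement genes 42 were listed in some table. In CPCC macrophage-marker cells 9 of 28 were at least 2-fold higher (10.4% of all genes) and 5 lower, below the 27.4% of all genes. The higher ones included Cfp, which encodes properdin (189 CPM in the class, 25.1 CPM over the sample), and Itgam and Itgb2, the chains of complement receptor 3 (134 and 96.9 CPM in the class). The 4 CB macrophage-marker cells differed, with 0 CPM of Cfp, 4.71 CPM of Itgam and 24.1 CPM of Itgb2, and 6 of 34 further genes higher (9.29% of all genes) and 14 lower (38.7%). The collectin gene Colec12 was at 382 CPM in the CPCC class and 77.3 CPM over all CPCC cells. In CB stromal-marker cells without the macrophage-marker cells, 9 of 34 were higher (10.7% of all genes) and 6 lower (12.7%), and among the classical and lectin pathway genes 6 of 12 were higher and 1 lower. C1ra, the partner of C1s1, stood at 65.9 CPM in these cells and 0.0235 CPM in all cells of the sample that were not stromal-marker cells. Masp1, a lectin pathway protease, was at 59.0 CPM in CB and 83.0 CPM in CPCC stromal-marker cells, and Colec12 at 412 CPM in CB stromal-marker cells. Between whole samples, 6 of 22 further genes were higher (17.0% of all genes) and 3 lower (7.54%) in CBs than in CPCCs. In CBs against mESCs 8 of 20 were higher (24.9%) and 1 lower (11.3%), and in CPCCs against mESCs 6 of 18 were higher (13.4%) and 3 lower (6.38%).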

How the data were processed

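Single cells captured on a Fluidigm C1 and amplified with SMART-Seq v4 chemistry were sequenced by the authors, who aligned the reads with STAR in Partek Flow to GRCm38 (mm10) and counted genes of Ensembl release 97, per the labels and the methods of the study. The authors deposited whole counts for CPCCs, and estimated counts for mESCs and CBs, where 29.2% and 31.2% of values above 0 are not whole. Whether counting used strand is not given in the sources used here. CPCC rows without a gene name (208) or with a date in its place (23) were left out with 0.139% of the counts, as were 2 columns that hold no sample.

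Counts were summed over cells per sample, pool and marker class, in Python 3.11.15 with numpy 2.4.6, pandas 2.3.3 and scipy 1.17.1, and divided by all counts of those cells (CPM). Ratios are log2 of (CPM + 1), and a gene was called at a 2-fold difference. With 1 sample per group no p-value was computed. A fold against a group without a count used 3 counts as the floor. For shares at equal depth, cells were thinned to 400000 counts. edgeR 4.0.16 and DESeq2 1.42.0 (R 4.3.3) gave alternative scaling factors only. Cells were not filtered in the main values. No doublet caller was run, and no cell name or identical cell was shared between tables. The log2 ratios, the 2-fold calls and the Pearson correlation were tested on simulated counts, and the intervals and marker classes were not. Positions are from GENCODE M21 and promoters from RefSeq, which matched 6 of the 9 genes. Genes of a pattern like a member's were the 3 with the highest Pearson r over the cells of the sample in which most cells held the member, among genes with a count in at least 5% of them, and further complement genes were named from 10 CPM in a sample, except 1 that is not reported here. Setting the macrophage-marker cells aside, leaving out the 2 highest other cells of each gene as well, and limiting a class to cells that meet no other rule, were alternatives chosen after seeing the data. Members, marker lists and rules were chosen with earlier results of these data known.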

Additional observations from a re-analysis of the deposited data

How the results depend on the processing

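No paired analysis was possible because each group is 1 sample. Leaving out 1 pool at a time moved the members at least 2-fold different between CBs and CPCCs to 3 to 8 higher and 0 to 5 lower, and those between CPCCs and mESCs to 0 to 1 higher and 0 to 1 lower, the far ends without CPCC pool 2. Log2 ratios of CBs to CPCCs then ranged from −5.80 to 4.06 for C1qa, −5.34 to 4.90 for C1qb, −5.20 to 4.92 for C1qc, −4.11 to 4.14 for C3ar1 and −4.12 to 3.67 for C5ar1, positive only without that pool. Without the macrophage-marker cells, an alternative chosen after seeing the data, 3 members were lower in CBs than CPCCs in place of 5, and C3ar1 turned to 0.24. Leaving out the 2 highest other cells of each gene too, also chosen after seeing the data, left 0 lower. With a pseudocount of 0.1 CPM, 1 member was higher in CPCCs than mESCs and 3 were lower in CPCC macrophage-marker cells, which had 0 lower with 10 CPM. At 3 or more markers the macrophage share was 11.6% in mESCs and 16.6% in CPCCs, and 17.7% in CPCCs with 1 count enough for a marker. In CB stromal-marker cells 3 members in place of 8 were higher without the macrophage-marker cells, and also 3 with cells that met no other rule, the second alternative chosen after seeing the data. Ratios there turned to −0.10 (C1qa), −0.16 (C1qc) and −0.0517 (C5ar1) under the first, and to −0.50 (C1qa), −0.90 (C1qb), −0.95 (C1qc), −0.62 (C3ar1) and −0.0496 (C5ar1) under the second, and C3ar1 to −0.35 with 8 or more markers needed. TMM or DESeq2 scaling changed none of these counts by more than 1.5 times. Spearman correlation kept at least 2 of the 3 most similar genes for 4 of 9 members. C3 and C4b in CBs and C1s1 in mESCs rest on few cells, which limits what can be said of them, and thinning to 400000 counts left their shares of cells nearly the same.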

Other observations

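Several further complement genes also had high levels in other classes of cells. Cd93, which encodes a surface protein of endothelial and myeloid cells once described as a C1q receptor, was at 342 CPM in the 20 endothelial-marker cells of CBs, with 10 or more counts in 17 of them, and at 1.01 and 4.23 CPM in the CB macrophage-marker and stromal-marker cells. In CPCCs it was at 37.8 CPM in macrophage-marker cells, 5 of 17 of which had 10 or more counts, at 73.3 CPM in stromal-marker cells and at 371 CPM in the 2 endothelial-marker cells, 1 of which had 10 or more counts. By CB pool it was at 0.0962, 97.6 and 0 CPM, so it followed pool 2, the pool with those endothelial-marker cells. Clu, the gene of clusterin, an inhibitor of the terminal complex, was at 1.98 CPM in mESCs, 234 CPM in CPCCs and 438 CPM in CBs, and at 743 CPM in the epithelial-marker cells of CBs, 34 of 44 of which had 10 or more counts, against 384 CPM in the stromal-marker and 330 CPM in the macrophage-marker cells. Vtn, the gene of vitronectin, was listed for CBs only, at 47.8 CPM, with 84.8 CPM in stromal-marker cells, 138 CPM in the macrophage-marker cells and 34.7% of its counts in a single cell.

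Of the regulators of the cell surface that reached 10 CPM in a sample, Susd4 was at 6.33, 2.29 and 12.8 CPM in mESCs, CPCCs and CBs. Cr1l, which encodes the rodent regulator Crry, was at 47.1 CPM in mESCs, 56.7 CPM in CPCCs and 62.0 CPM in CBs, with a count in 78.1%, 82.9% and 55.6% of cells. Cd55, the gene of decay accelerating factor, was at 39.1, 30.05 and 72.7 CPM, with 152 CPM in CB epithelial-marker cells. Cd59a, the gene of an inhibitor of the membrane attack complex, was at 4.24, 14.6 and 31.7 CPM.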
